A study of Saccharomyces cerevisiae with 12 samples.

Results

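The genes described here are the 6 open reading frames (ORFs) that flank HCM1 (YCR065W) on chromosome III of budding yeast, chosen by their systematic names and not by any measured value, out of 6174 ORFs in the deposited table. In the order of the chromosome they are TVS1 (YCR061W), BUD31 (YCR063W) and YCR064C on one side of HCM1, and RAD18 (YCR066W), SED4 (YCR067C) and ATG15 (YCR068W) on the other. The data were log2 ratios from 12 arrays with a Cy5 and a Cy3 channel, 2 dye-swapped arrays (Exp 1 and Exp 2) for each of 6 comparisons of haploid MATa strains. Values are given after subtraction of the array's median. A value of 1 is a 2-fold difference.

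All strains derive from CML128, called WT, which carries ura3-52, his4, trp1 and mutant alleles of LEU2. In the Δhcm1 strain MJRC05, natMX4 replaces HCM1. The tetHCM1HA strain MJRC07 was made from the tagged strain and has HCM1-3HA behind a tetO7 promoter marked with kanMX4, which doxycycline represses. The tagged strain HCM1HA, named GRB2405, keeps the HCM1 promoter and carries HCM1-3HA marked with natMX4. Cells grew in YPD at 30 °C. The comparisons were Δhcm1 over WT, tetHCM1HA over HCM1HA, tetHCM1HA over the same strain with 10 h of doxycycline, HCM1HA over WT, and HCM1HA with 4 h and with 10 h of doxycycline over HCM1HA without it. Each comparison has 1 strain on either side, so nothing here separates a genotype from the isolate that carried it. The first 2 comparisons and HCM1HA over WT set strains against each other whose DNA at HCM1 differs. In tetHCM1HA over HCM1HA the described difference lies on the promoter side only, since tetHCM1HA was made from the tagged strain. The 3 doxycycline comparisons have the same DNA on either side.

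HCM1 encodes a forkhead transcription factor that acts in S phase on genes for chromosome segregation. Replacing a gene with a marker cassette, or placing a cassette and a new promoter in front of it, alters the DNA next to its neighbours, and transcription of a neighbour can depend on such flanking DNA in budding yeast. In systematic ORF names of this species the last letter gives the strand, W for Watson and C for Crick. TVS1, BUD31, RAD18 and ATG15 thus run in the same direction as HCM1, and YCR064C and SED4 in the opposite one.

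The arrays held 2520 to 6174 ORFs, and their deposited medians lay between -0.05 and 0.09. The submitters state that dyes were swapped for every RNA sample, so a pair of arrays was treated as 1 RNA pair, and every SD below is over 2 arrays and may be technical. The 2 columns of HCM1HA over WT mirrored each other (Pearson r = -0.999 over 3262 ORFs), so only the first was used, and which sign is right is not settled. Total RNA of whole cultures was measured, where fewer cells at a stage and less RNA per cell cannot be told apart. WT stands in 2 of the comparisons and untreated HCM1HA in 4, and whether these share an RNA sample is not stated, so comparisons are set side by side and not counted as independent.

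HCM1 checked the labels. Its log2 ratio was -3.55 and -3.18 on the 2 deletion arrays, 5.31 and 5.02 in tetHCM1HA over HCM1HA, and 5.79 and 5.51 in tetHCM1HA over tetHCM1HA with doxycycline. In HCM1HA over WT it stood at 0.27 on the array used. After doxycycline in HCM1HA, where HCM1 keeps its own promoter, it was 0.50 on the only 4 h array with a value and 1.37 and 0.68 at 10 h. The flanking ORFs had far smaller ratios than HCM1 in the first 3 of these comparisons, and the largest of theirs on any array was that of TVS1, -1.19 after 4 h of doxycycline.

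In the deletion strain, 5 of the 6 flanking ORFs had a mean ratio above 0. RAD18 and YCR064C, next to HCM1 by systematic name, had the highest means. Nearness did not order the rest, since BUD31, which YCR064C overlaps, had a lower mean (0.27) than the more distant TVS1 (0.49). RAD18, which follows HCM1, was at 0.48 on Exp 1 and 0.95 on Exp 2, a mean of 0.71 ± 0.33 (SD, n = 2 arrays) or 1.64-fold. It encodes the ubiquitin ligase that marks the sliding clamp PCNA for post-replication repair of damaged DNA. RAD18 was the 21st highest mean of 5161 ORFs with values on both deletion arrays. Its place among the flanking ORFs rests on Exp 2, since on Exp 1 YCR064C, TVS1, SED4 and BUD31 were higher. By the smaller of the 2 array values, 24 ORFs including RAD18 were at least as high, 0.465% of those measured.

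YCR064C, immediately before HCM1, was at 0.95 and 0.38, a mean of 0.67 ± 0.41 or 1.59-fold and the 32nd highest of 5161. It is regarded as a dubious ORF that overlaps BUD31 on the other strand. Whether the array probes tell the strands apart is not given in the sources used here, so signal from BUD31 transcripts at this spot cannot be told apart from its own. YCR064C had values on both deletion arrays and on no other, as was so for 164 ORFs in all. Deletion Exp 2 held a value for all 6174 ORFs of the table, so having a value there does not set YCR064C apart.

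The remaining flanking ORFs had lower means than these. BUD31, which encodes a protein of the spliceosome also needed for bud site selection, was at 0.55 and 0.00, with a mean of 0.27 ± 0.39. The second value was -0.0014 after centring and above 0 as deposited, so BUD31 stood above the array median on Exp 1 alone. TVS1 was at 0.75 and 0.24, with a mean of 0.49 ± 0.36 or 1.41-fold. On the far side, SED4, which encodes an integral membrane protein of the endoplasmic reticulum related to Sec12 of COPII vesicle budding, was at 0.70 and 0.15, with a mean of 0.43 ± 0.38 or 1.34-fold. ATG15, which encodes the lipase that breaks down autophagic bodies in the vacuole, was the exception at -0.40 and -0.02, with a mean of -0.21 ± 0.27. For BUD31, SED4 and ATG15 the SD over the arrays was about as large as the mean or larger than it.

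**Figure D1:**
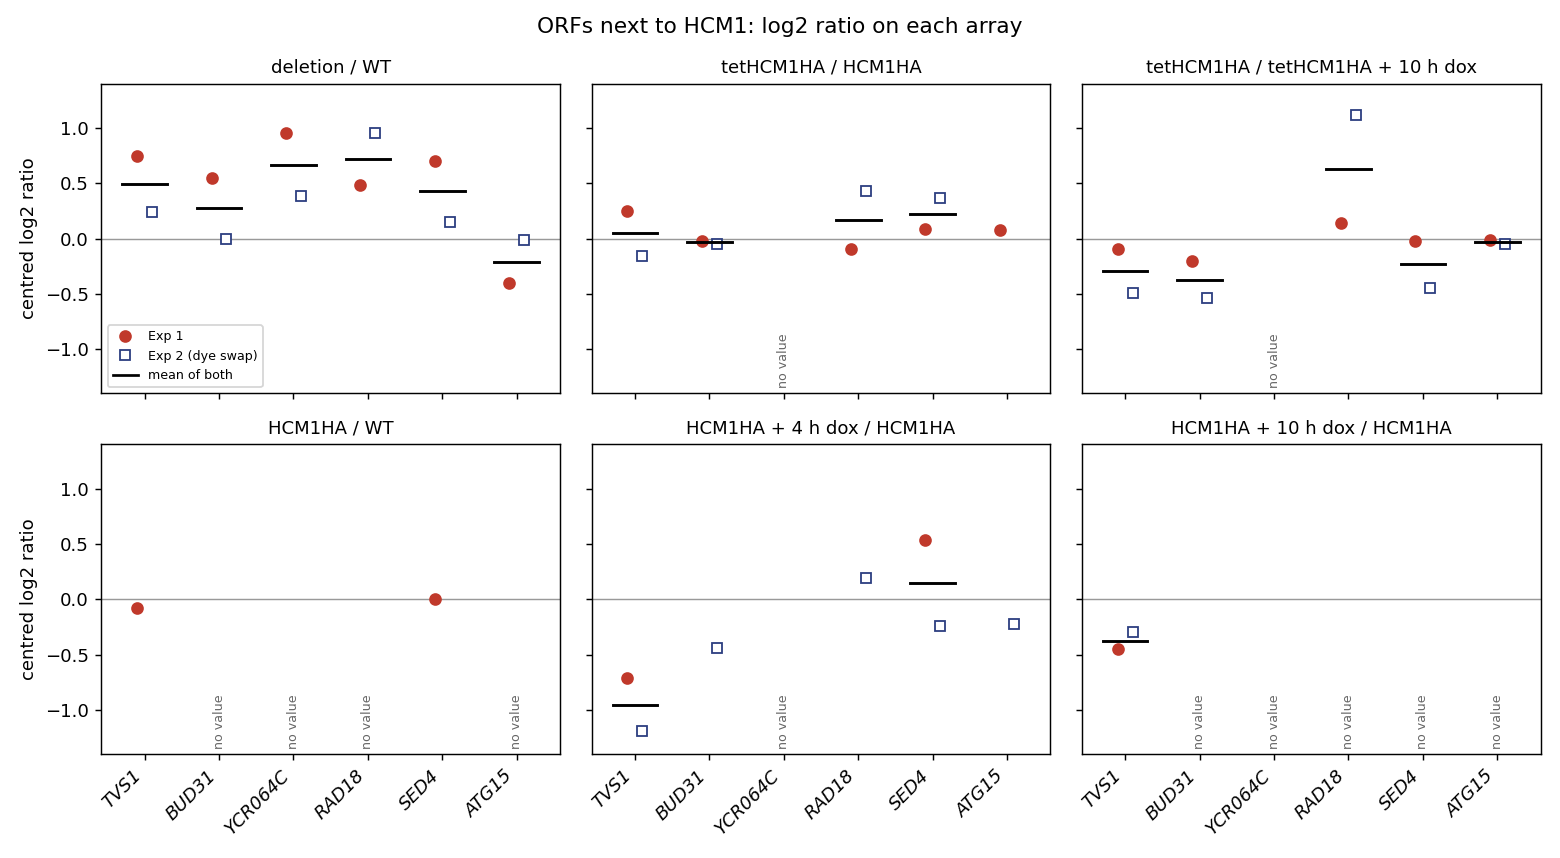
Centred log2 ratio (vertical axis) of the 6 ORFs next to HCM1 (horizontal axis, in chromosomal order) on each array of the 6 comparisons; filled circles are Exp 1, open squares Exp 2 with the dyes swapped, and bars the mean of both. In the deletion panel the mean bars of RAD18 (0.71) and YCR064C (0.67) stand highest, while TVS1, SED4 and BUD31 are above RAD18 on Exp 1, and in the panel of tetHCM1HA over tetHCM1HA with doxycycline RAD18 alone is above 0 on both arrays.

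None of these values passed the test across all genes. With the spread taken from the 3 control comparisons, 0 of 2538 ORFs reached a limma adjusted p below 0.05 by Benjamini-Hochberg (0% called), and 26 had an unadjusted p below that value. HCM1 itself, 10.3-fold lower, did not pass either (limma, adjusted p = 1). TVS1 had a standard error of 0.49 and a 95% interval from -0.65 to 1.63 (limma, adjusted p = 1), and SED4 an interval from -0.39 to 1.24 (limma, adjusted p = 1). The other 4 flanking ORFs had values in fewer than 2 control comparisons and were not tested there. With their variance set to the prior of the fit, an alternative added after the data were seen, the 95% intervals were -0.25 to 1.68 for RAD18, -0.30 to 1.63 for YCR064C, -0.69 to 1.24 for BUD31 and -1.17 to 0.76 for ATG15 (limma, adjusted p = 1 for each). Every one of these intervals spans 0. Any true response of the controls to doxycycline is part of the spread, and even HCM1 did not pass. Failure to pass therefore does not show that a flanking ORF was unchanged.

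When each array was entered as its own value with the Exp number as a block, RAD18 rose in the deletion (limma, adjusted p = 0.0109), as did TVS1 (limma, adjusted p = 0.0297). BUD31 (adjusted p = 0.168), SED4 (adjusted p = 0.112) and ATG15 (adjusted p = 0.296) did not pass in this limma fit, and YCR064C could not be fitted. Of the 5 flanking ORFs in this fit 2 thus passed, both higher, where 20% of all ORFs passed in either direction, 6.85% higher and 13.1% lower. Without the block neither passed (limma, adjusted p = 0.18 for RAD18 and 0.212 for TVS1). The spread in these fits is that between arrays of 1 RNA pair, and it says nothing of how independent cultures vary.

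TVS1, YCR064C, RAD18 and SED4, 4 of the 6 flanking ORFs, were higher on both deletion arrays, where 29.1% of all ORFs were. ATG15 alone was lower on both, as were 35.8% of all ORFs. None reached 1.5-fold on both arrays, a size that 0.213% of ORFs reached upwards and 5.54% downwards. The shares of ORFs lower in the deletion include chromosome IX. Its 193 measured ORFs had a median of -0.92, and 178 of them were lower on both arrays. The median of the 6 was 0.46, against -0.01 for all 5161 ORFs, and it was 0.62 on Exp 1 and 0.20 on Exp 2.

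The rest of chromosome III was itself above the median in this comparison. Its 158 measured ORFs, without the flanking ORFs and the wider neighbourhood, had a median of 0.12, with 0.17 on Exp 1 and 0.00 on Exp 2, and 41.8% of them were higher on both arrays. Relative to the median of all such ORFs on each array (0.17 on Exp 1 and 0.01 on Exp 2, which measured more of them), RAD18 stood at 0.31 and 0.93, YCR064C at 0.78 and 0.37, TVS1 at 0.58 and 0.22 and SED4 at 0.52 and 0.14. BUD31 was 0.37 above it on Exp 1 and 0.02 below it on Exp 2 (-0.02), and ATG15 was at -0.57 and -0.03. The same 4 ORFs were thus above the median of the rest of their chromosome on both arrays. The share of its other ORFs that were so was not counted.

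The wider neighbourhood, the ORFs numbered YCR050 to YCR060 and YCR069 to YCR079, had a median of 0.14 over 14 measured ORFs, 7 of them higher on both arrays. IMG2, a mitochondrial ribosomal protein gene, was at 0.51 and 0.49, a mean of 0.50 ± 0.01, and was the highest. TAH1, an Hsp90 cofactor gene that lies beyond TVS1, was at 0.77 and 0.16, a mean of 0.46 ± 0.43. The lowest were YIH1, which encodes an inhibitor of Gcn2 activation, at -0.29 ± 0.51, and PWP2, of ribosomal RNA processing, at -0.10 ± 0.09. TAH1 and IMG2, on either side of the flanking ORFs, thus had means like those of TVS1 and SED4, while no measured ORF of the wider neighbourhood had a mean as high as RAD18 or YCR064C.

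**Figure D2:**
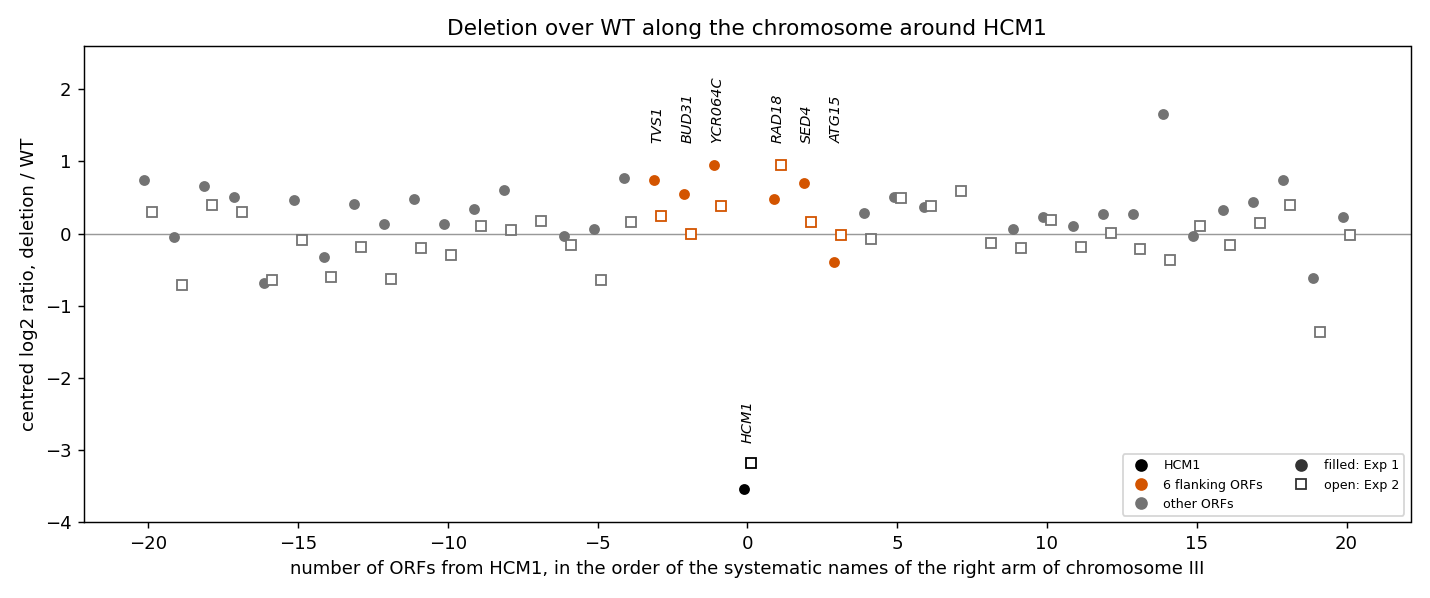
Centred log2 ratio of the deletion over WT (vertical axis) for HCM1 (black), the 6 flanking ORFs (orange) and the other ORFs (grey) up to 20 ORFs away (horizontal axis, in the order of the systematic names); filled circles are Exp 1 and open squares Exp 2. HCM1 lies at -3.55 and -3.18, RAD18 and YCR064C on either side of it at means of 0.71 and 0.67, and ATG15 below 0.

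Elsewhere on chromosome III the highest means were PMP1 (0.73 ± 0.27), which encodes a small proteolipid of the plasma membrane proton pump, and CHA1 (0.71 ± 0.16), the serine deaminase gene. RAD18 and YCR064C were thus close to the top of the chromosome but not above it. The lowest were YCR087W (-0.99 ± 0.52) and HIS4 (-0.84 ± 0.03), of histidine synthesis and mutated in all of these strains.

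**Figure D3:**
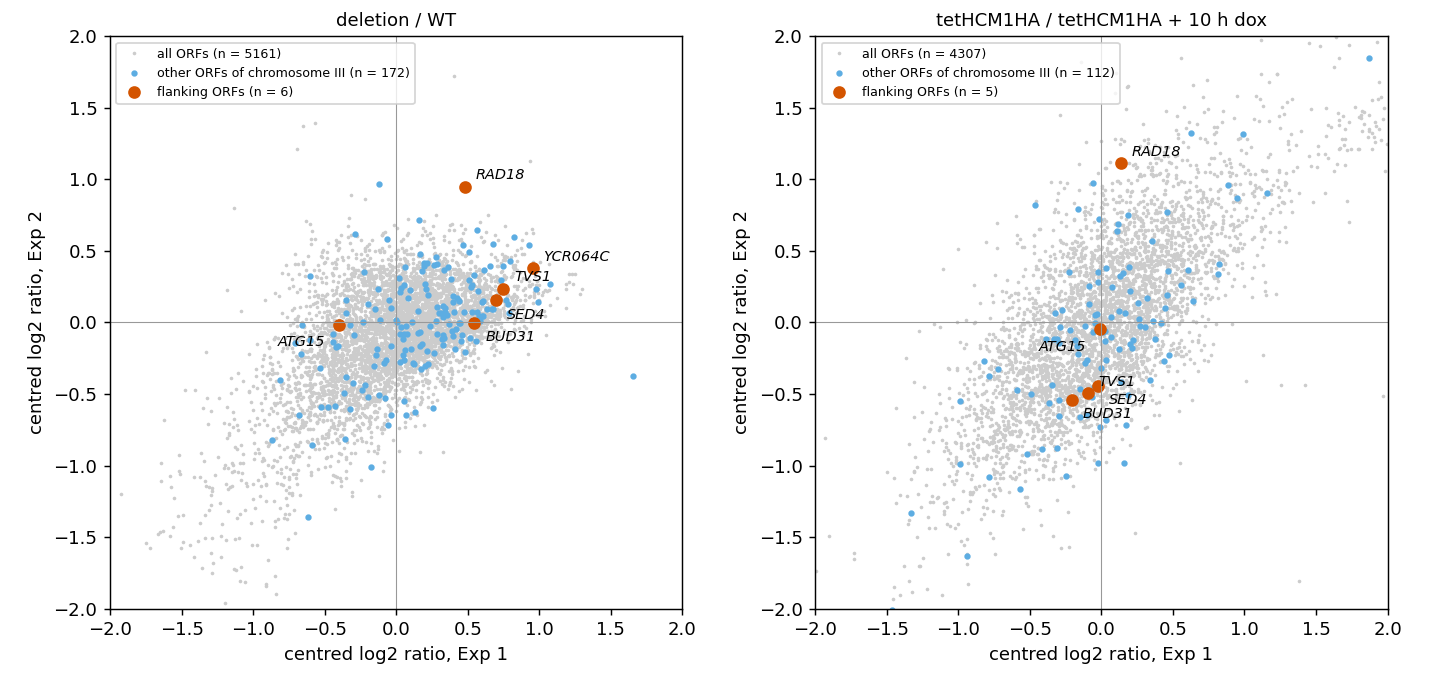
Centred log2 ratio on Exp 2 (vertical axis) against Exp 1 (horizontal axis) for all ORFs (grey), other ORFs of chromosome III (blue) and the flanking ORFs (orange), for the deletion over WT (5161 ORFs, left) and tetHCM1HA over tetHCM1HA with 10 h of doxycycline (4307 ORFs, right); 9 and 70 ORFs lie outside the axes. RAD18 is at 0.48 and 0.95 in the left panel, where its mean ranks 21st of 5161 ORFs, and at 0.14 and 1.12 in the right panel, where it ranks 503rd of 4307.

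With the tet promoter and its kanMX4 marker in front of HCM1, the flanking ORFs lay close to 0 relative to HCM1HA. TVS1 was at 0.25 and -0.15, a mean of 0.05 ± 0.28, with opposite signs on the 2 arrays. BUD31, the nearest measured ORF on the promoter side of HCM1, was at -0.02 and -0.05, a mean of -0.04 ± 0.02. BUD31 thus stayed close to the array median on both arrays, while HCM1 on the other side of the insertion was 35.9-fold higher.

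On the far side of HCM1 in the same comparison, RAD18 was at -0.10 and 0.43, a mean of 0.17 ± 0.37. By the strain descriptions, tetHCM1HA and HCM1HA share the tag and its marker, which RAD18 follows. An effect of altered DNA directly next to RAD18 was thus not tested in this comparison. SED4 was at 0.08 and 0.36, a mean of 0.22 ± 0.20, and was the only member higher on both arrays, where 32.4% of ORFs were. BUD31 was the only one lower on both, where 33.8% of ORFs were. None of the 4 reached 1.5-fold on both arrays, as 4.88% of ORFs did upwards and 2.07% downwards. ATG15 had a value on Exp 1 alone, 0.08.

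The median of the 4 ORFs with both arrays was 0.11, against -0.01 for all 3955 ORFs and 0.01 for the rest of chromosome III. No ORF passed among 2435 tested (limma, 0% called), although 113 were below 0.05 before adjustment. The limma adjusted p of HCM1 was 0.056. TVS1 had a 95% interval from -1.07 to 1.16 and SED4 one from -0.59 to 1.04 (limma, adjusted p = 1 for each). With single arrays and the Exp block, 24.3% of ORFs passed and none of the 4 flanking ORFs did, the lowest limma adjusted p being 0.36 for SED4.

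Between tetHCM1HA without and with 10 h of doxycycline the DNA of the locus is the same and HCM1 differed 50.2-fold. RAD18 was at 0.14 and 1.12, a mean of 0.63 ± 0.69, higher on both arrays as were 37% of ORFs. Its SD was larger than its mean. The other 4 measured flanking ORFs were all lower on both arrays, where 37.9% of ORFs were.

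BUD31 was at -0.21 and -0.54 in this comparison, a mean of -0.37 ± 0.24. TVS1 was at -0.10 and -0.49, a mean of -0.29 ± 0.28, and SED4 at -0.02 and -0.44, a mean of -0.23 ± 0.30. ATG15 was at -0.01 and -0.05, a mean of -0.03 ± 0.02. The sign of RAD18 thus differed from that of the rest. The ratio of HCM1 was highest here, but the untreated strain is also the numerator of tetHCM1HA over HCM1HA. A relation of RAD18 to the level of HCM1 was not tested.

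The median of the 5 was -0.23, against 0.00 for all 4307 ORFs and -0.03 for the rest of chromosome III. HCM1 was the 1 ORF that passed of 2480 tested (limma, adjusted p = 0.0445, 0.0403% called), a call lost with the values as deposited, with a robust fit, with ordinary variances, with Exp 1 alone and with the mirrored columns averaged. TVS1 had a 95% interval from -1.42 to 0.83 (limma, adjusted p = 0.95) and SED4 one from -1.04 to 0.58 (limma, adjusted p = 0.941). With single arrays and the Exp block, RAD18 rose (limma, adjusted p = 0.00642) and BUD31 fell (limma, adjusted p = 0.043), but 48.2% of all ORFs passed in that fit, 23.9% higher and 24.3% lower. A share of 2 of 5 is near that background. Without the block neither passed (limma, adjusted p = 0.116 for RAD18 and 0.179 for BUD31). None of the 5 reached 1.5-fold on both arrays, where 8.34% of ORFs did upwards and 8.24% downwards. The denominator here had 10 h of doxycycline, and RAD18, BUD31, SED4 and ATG15 had no value on either 10 h array of HCM1HA. An effect of 10 h of doxycycline on them could thus not be set beside these values. Their 4 h values in HCM1HA, on Exp 2 alone for all but SED4, are given below.

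In the wider neighbourhood, FUB1, of proteasome function, was highest in both tet comparisons, at 0.73 ± 0.67 in tetHCM1HA over HCM1HA and 0.41 ± 0.20 in tetHCM1HA over tetHCM1HA with doxycycline. Its PWP2 was at -0.19 ± 0.14 and -0.47 ± 0.14. The neighbourhood medians were 0.13 over 11 ORFs and 0.04 over 10. In tetHCM1HA over tetHCM1HA with doxycycline the mean of RAD18, 0.63, lay above that of each measured ORF of the neighbourhood. That rests on Exp 2 (1.12), since RAD18 was at 0.14 on Exp 1, below the mean of FUB1.

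RAD18 had a mean above 0 in each of the 3 comparisons in which HCM1 was deleted or driven by the tet promoter, 0.71 in the deletion, 0.17 in tetHCM1HA over HCM1HA and 0.63 in tetHCM1HA over tetHCM1HA with doxycycline. The value of 0.17 had opposite signs on its 2 arrays, -0.10 and 0.43. HCM1 itself was at -3.36, 5.17 and 5.65 in the same order. RAD18 was above 0 on both arrays in the first of these comparisons, with HCM1 lower, and in the last, with HCM1 higher. TVS1 (0.49, 0.05 and -0.29) and BUD31 (0.27, -0.04 and -0.37) were above 0 in the deletion and below 0 in tetHCM1HA over tetHCM1HA with doxycycline. SED4, on the other side of HCM1, changed sign in the same way (0.43, 0.22 and -0.23). Differences of the same member between comparisons were not tested.

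In HCM1HA over WT, where natMX4 and the tag lie at HCM1 in the tagged strain, 2 flanking ORFs had a value. TVS1 was at -0.08 and SED4 at 0.00 on the 1 array used, against a median of 0.00 for all 3317 ORFs. No ORF passed among 1644 tested (limma, 0% called), 2 had an unadjusted p below 0.05, and TVS1 had a limma adjusted p of 1. RAD18, which follows the marker of this strain, had no value in this comparison.

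After 4 h of doxycycline in HCM1HA, TVS1 was at -0.72 and -1.19, a mean of -0.95 ± 0.34 or 1.94-fold lower. It was lower by at least 1.5-fold on both arrays, as were 5.13% of ORFs (5.09% were higher by as much), and was the 82nd lowest of 2495. It did not pass (limma, 95% interval from -1.88 to -0.02, adjusted p = 0.993), and 0 of 1644 ORFs did (0% called), with 42 at an unadjusted p below 0.05. With single arrays and the Exp block TVS1 fell (limma, adjusted p = 0.00086), as it did without the block (limma, adjusted p = 0.0129), in fits where the block version called 40.1% of ORFs, 23.3% higher and 16.8% lower.

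SED4 was at 0.53 and -0.24 after 4 h, a mean of 0.15 ± 0.55, with opposite signs on the arrays. Of the 2 flanking ORFs with both arrays, TVS1 was thus lower on both and none higher, where 29.5% of ORFs were lower and 36.4% higher. BUD31 (-0.44), RAD18 (0.20) and ATG15 (-0.22) had a value on Exp 2 alone. The rest of chromosome III had a median of -0.12 over 48 ORFs here, so TVS1 was lower than most of its chromosome.

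After 10 h of doxycycline TVS1 was at -0.45 and -0.30, a mean of -0.37 ± 0.11, and no other flanking ORF had a value. It did not pass (limma, 95% interval from -1.17 to 0.42, adjusted p = 0.661), in a comparison where 178 of 1644 ORFs did (10.8% called, 5.29% higher and 5.54% lower). With single arrays and the Exp block TVS1 fell (limma, adjusted p = 0.0307), where 59.1% of ORFs passed, 30.3% higher and 28.9% lower, and without the block it did not pass (limma, adjusted p = 0.162). It was lower on both arrays, as were 35.8% of ORFs, but not by 1.5-fold, as were 12.2%. TVS1 was thus below 0 on all 4 doxycycline arrays of HCM1HA. In tetHCM1HA over tetHCM1HA with doxycycline, TVS1 was below 0 on both arrays, but there the treated cells are the denominator. It was thus higher with doxycycline in that strain, the opposite direction to that in HCM1HA.

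The 2 dye orientations disagreed for several of these ORFs in a steady direction. RAD18 was higher on Exp 2 than on Exp 1 in each of the 3 comparisons in which both arrays measured it, Exp 1 minus Exp 2 being -0.47 in the deletion, -0.53 in tetHCM1HA over HCM1HA and -0.98 in tetHCM1HA over tetHCM1HA with doxycycline. TVS1 went the other way in 4 of 5 comparisons, at 0.51, 0.40, 0.40 and 0.48, and -0.15 at 10 h of doxycycline. The median size of this difference over all ORFs was 0.27 in the deletion, 0.26 in tetHCM1HA over HCM1HA and 0.29 in tetHCM1HA over tetHCM1HA with doxycycline. RAD18 and TVS1 thus exceeded the usual difference there. SED4 had 0.54, -0.28, 0.42 and 0.78 in the deletion, the 2 tet comparisons and 4 h of doxycycline, and so kept no single direction. The mean of a pair cancels a dye effect that is equal on both arrays, while the SD over the pair contains it.

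**Figure D4:**
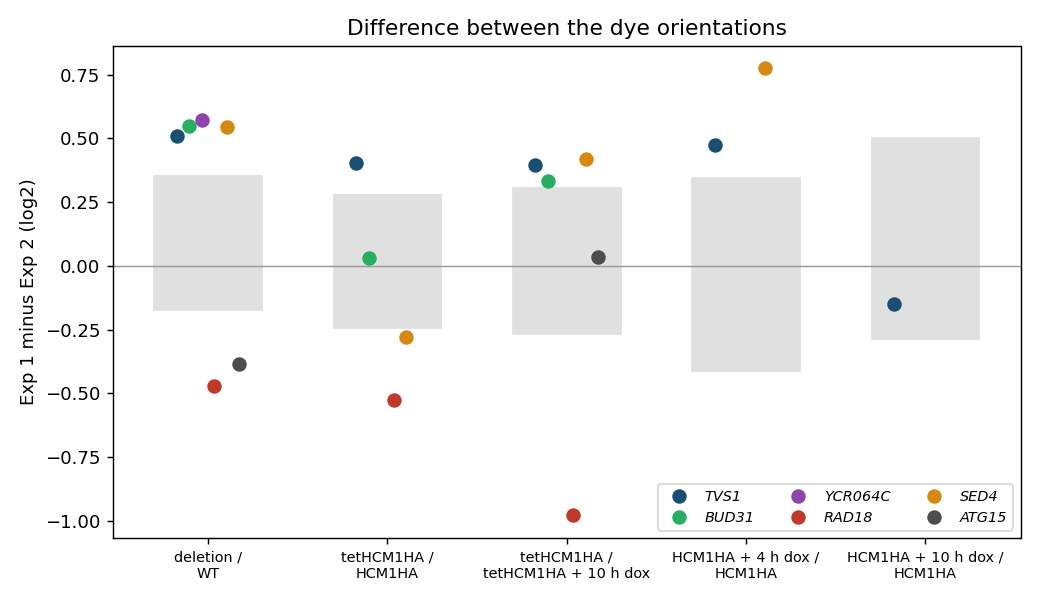
Exp 1 minus Exp 2 of the log2 ratio (vertical axis) for each flanking ORF in the 5 comparisons with separate arrays; grey boxes span the quartiles of all ORFs. RAD18 lies below the box in its 3 comparisons, at -0.47, -0.53 and -0.98, and TVS1 above it in 4 of 5.

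The genes that work with the flanking genes were taken from lists fixed by name. Of 12 post-replication repair genes around RAD18, 9 were measured in the deletion, with a median of -0.05, 1 higher and 1 lower on both arrays. UBC13, which encodes a ubiquitin conjugating enzyme of this pathway, was highest at 0.37 ± 0.18. REV7, a subunit gene of translesion polymerase zeta, was lowest at -0.80 ± 0.08, and it lies on chromosome IX, whose 193 ORFs had a median of -0.92 in the deletion. None of the 2 tested passed in the deletion or in either tet comparison, nor did the 1 tested after 4 h of doxycycline. In tetHCM1HA over tetHCM1HA with doxycycline UBC13 was highest at 0.41 ± 0.22 and RAD5 lowest at -0.49 ± 0.42, with a median of -0.06 over 8. The mean of RAD18, 0.71 in the deletion and 0.63 here, was above that of each measured gene of its list in both. This ranks means only, since on Exp 1 RAD18 was at 0.48 in the deletion and 0.14 here.

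Of the 12 genes around SED4, of the COPII coat and its cargo carriers, all were measured in the deletion, with a median of 0.09. SAR1, the GTPase gene of the coat, was highest at 0.42 ± 0.35, about the level of SED4. SEC24, a coat subunit gene on chromosome IX, was lowest at -1.10 ± 0.38. None of the 9 tested passed in the deletion or either tet comparison, and none of 8 in the control comparisons. The list medians were -0.03 in tetHCM1HA over HCM1HA and 0.03 in tetHCM1HA over tetHCM1HA with doxycycline.

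Of 16 autophagy and vacuole genes around ATG15, 13 were measured in the deletion, with a median of -0.35, 3 higher and 7 lower on both arrays, and ATG15 at -0.21 lay within that range. ATG17, a scaffold gene of the autophagy initiation complex, was highest at 0.55 ± 0.11, and APE1, the vacuolar aminopeptidase gene, lowest at -0.96 ± 0.24. None of the 4 tested passed. After 10 h of doxycycline the median was -0.98 over 6, and PRB1, the vacuolar protease B gene, fell (-1.86, limma, adjusted p = 0.000246), the 1 of 3 tested that passed. SIZ1 of the RAD18 list, a SUMO ligase gene, fell in the same comparison (-1.50, limma, adjusted p = 0.00798), the only 1 of that list tested there. Over all ORFs in that comparison 10.8% passed, 5.54% lower.

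Of 24 spliceosome genes around BUD31, 21 were measured in the deletion, with a median of -0.04, 2 higher and 8 lower on both arrays. ISY1 was highest at 0.52 ± 0.63 and PRP9 lowest at -0.61 ± 0.20, both encoding spliceosome proteins, and none of the 5 tested passed. In tetHCM1HA over tetHCM1HA with doxycycline the list had a median of 0.00 over 17, with SNT309 highest at 0.60 ± 0.21, and BUD31 at -0.37 was lower than that median. The list medians of the 4 partner groups in the deletion, from -0.35 to 0.09, all lay below the 0.46 of the flanking ORFs.

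TVS1 and SED4 had values on enough arrays for a search for the ORFs with the most similar values, measured as the root mean square difference. For TVS1, over 11 arrays and 1620 other ORFs, the nearest was CPR4, a cyclophilin gene that lies beyond ATG15 in the same neighbourhood, at 0.31, and the next was YOL036W at 0.33, against a median of 0.72. CPR4 had means of 0.10 in Δhcm1 over WT, -0.03 in tetHCM1HA over HCM1HA, -0.19 in tetHCM1HA over tetHCM1HA with doxycycline and -0.46 after 4 h of doxycycline. For SED4, over 9 arrays and 1926 other ORFs, the nearest were ARO9, an aromatic aminotransferase gene, at 0.19 and YIF1, of vesicle transport, at 0.20, against a median of 0.50. ARO9 had means of 0.36, 0.34, -0.38 and 0.21 in these comparisons, where SED4 had 0.43, 0.22, -0.23 and 0.15. These differences describe likeness over arrays that share RNA samples.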

How the data were processed

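The authors deposited normalized log2 ratios; how they normalized them, and the array's design, is not stated in the labels. Per the labels, cDNA of total RNA carried Cy5 or Cy3 by indirect labelling, and the description gives each array's ratio as Cy5/Cy3 or Cy3/Cy5, which sets the direction used. Antilogs to base 2 were multiples of 0.001 for 100% of the values in 11 columns, which fixes the log2 scale. The remaining column is the one used for HCM1HA over WT (19.5% on that grid), and its scale was taken from the column it mirrors. Each array was centred on its median (R 4.3.3, limma 3.58.1, Python 3.11.15). A gene's value is the mean of the 2 dye-swapped arrays with their SD; for HCM1HA over WT only the first column was used. limma's lmFit and eBayes ran on 1 value per comparison, with the residual from the 3 control comparisons (HCM1HA over WT, 4 h and 10 h of doxycycline in HCM1HA), for ORFs with at least 2 of them, and with Benjamini-Hochberg adjustment over all ORFs of a comparison. This assumes that controls have no true change. At 10 h of doxycycline 178 of 1644 ORFs passed, so the assumption is doubtful there. Any true change in a control enters the spread and widens the intervals.

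Exp numbers were the same as dye orientations per the labels, and the Exp 1 minus Exp 2 differences of the 5 comparisons with separate arrays correlated with r from 0.56 to 0.68 in all 10 pairs, so the number was also used as a block. Names come from RefSeq R64, which matched 5675 of 6174 ORFs and not YCR064C; coordinates are left out, since no source names a build. The members, lists and rules were chosen with earlier results of these data known. Genes named are HCM1, the 6 members, the 2 highest and 2 lowest of the wider neighbourhood and of the rest of the chromosome, of which the text gives the deletion, the extremes of each list, of which the text gives some, and the 2 nearest ORFs of members with at least 9 arrays. Alternatives covered scaling, the mirrored columns, single arrays, the fit, the controls and filters.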

Additional observations from a re-analysis of the deposited data

How the results depend on the processing

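The labels give each pair of arrays the same Exp numbers; a fit with single arrays and the replicate block called 889 ORFs in the deletion, 960 in tetHCM1HA over HCM1HA, 2069 in tetHCM1HA over tetHCM1HA with doxycycline, 4 in HCM1HA over WT, 995 after 4 h and 1364 after 10 h of doxycycline. Single arrays without the block called 204, 285, 1010, 1, 365 and 859 in the same order. Both take the spread between arrays of 1 RNA pair. The counts with 1 value per comparison were 0, 0, 1, 0, 0 and 178. Scaling arrays to 1 spread gave 1, 5 and 28 in the deletion, tetHCM1HA over HCM1HA and 10 h of doxycycline. In tetHCM1HA over HCM1HA the count was 1 with a robust fit, without the 4 h control or with ORFs of 1 control value, and 5 without the 10 h control. In tetHCM1HA over tetHCM1HA with doxycycline it was 0 with values as deposited, mirrored columns averaged or a robust fit, and 95 without the 10 h control. It was also 0 with only ORFs on all arrays or no tagged control. HCM1, the ORF called in the main fit, lacks a value on a 4 h array and was not tested in those 2 fits. The 4 h count was 69 without the 10 h control. The 10 h count was 10 with mirrored columns averaged, 1 with ordinary variances, 100 without the tagged control and 356 without the 4 h control.

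Leaving out either replicate gave 0 to 1 calls in tetHCM1HA over HCM1HA, 0 to 2 in tetHCM1HA over tetHCM1HA with doxycycline and 127 to 136 at 10 h. ORFs changed at least 2-fold on both arrays numbered 79, 68, 231, 71 and 220 in the deletion, the 2 tet comparisons, 4 h and 10 h. At 1.5-fold they numbered 297, 275, 714, 255 and 520. Scaling gave 126, 152 and 93 in the deletion, tetHCM1HA over HCM1HA and 10 h. On 1 array alone they ranged from 157 to 164, 113 to 177, 359 to 465, 149 to 249 and 348 to 516, as only 1 array then had to pass. The cause of the other shifts was not tested.

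Among the flanking ORFs, TVS1 reversed in tetHCM1HA over HCM1HA, with values from -0.1546 without replicate 1 to 0.2476 without replicate 2. In HCM1HA over WT TVS1 was at 0.0064 with mirrored columns averaged and 0.0918 with the second column. As those columns mirror each other, a changed sign or a value near 0 there follows for any ORF or median. The sign also differed on 1 array for RAD18 in tetHCM1HA over HCM1HA (-0.0966 without replicate 2), SED4 after 4 h (-0.2419 without replicate 1) and BUD31 in the deletion (-0.0014 without replicate 1). The median of the flanking ORFs in HCM1HA over WT was -0.0503 with scaling, 0.0014 with mirrored columns averaged and 0.0409 with the second column, against -0.04. In the other comparisons it moved by less than the SD over arrays under the scalings. On single arrays it ranged from 0.20 to 0.62 in the deletion, 0.03 to 0.16 in tetHCM1HA over HCM1HA, -0.44 to -0.02 in tetHCM1HA over tetHCM1HA with doxycycline and -0.72 to -0.09 after 4 h. RAD18 and YCR064C were above 0 in the deletion under each alternative run. The number of RNA pairs limits the precision, and spot intensities were not used here.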
